A study of Mus musculus with 28 samples.

Results

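The response of gut T cells to an antibody against CD3 in mice without a gut flora was described from 16 of the 28 libraries of the series. The libraries were chosen by their labels alone: 6 came from germ-free (GF) mice given the anti-CD3 antibody (aCD3; 1 female and 5 male, named F1 and M1 to M5), and 10 from GF mice given an isotype control antibody (5 female and 5 male). All mice, controls included, carried the T-bet-ZsGreen reporter, in which a fluorescent protein reports on the transcription factor T-bet. The cells of both groups were live CD45+, CD90.2+, TCRb+, CD4+ cells sorted from the lamina propria of the small intestine, and their RNA was sequenced. The dose of antibody, the time between injection and sampling, the age of the mice and the number of animals behind a library were not given in the sources used here. The labels also do not say whether all 6 aCD3 mice received the same treatment in full, which bears on every mean over the 6 libraries because F1, M3 and M4 lay near the isotype libraries. Where libraries do not come from separate animals, the p-values below measure only the spread between these libraries. The remaining 12 libraries, from specific-pathogen-free (SPF) mice given the same antibodies, entered the statistical model and served as a reference for a few values.

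CD3 is the signalling part of the T cell receptor complex, so an antibody that binds it engages the receptor of T cells whatever their antigen. In mice such antibodies are known to activate T cells, to thin out many of them, and to favour interleukin-10 production by CD4+ T cells of the small intestine, among them the type 1 regulatory (Tr1) cells that carry the inhibitory receptor LAG-3. A resting T cell keeps the interleukin-7 receptor and quiescence factors at a high level, a stimulated one induces immediate early transcription factors, and a dividing one makes replication enzymes, mitotic proteins and histones. Gut T cells of GF mice lack the signals of live bacteria, and the comparison asks what the antibody does without them.

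The marker genes of CD4+ T cells fitted the sort. Summed over Cd3e, Cd3d, Cd3g, Cd247, Cd4, Lck, Thy1 and Ptprc, the level, in TPM (a length-normalised share of a library), was 1769 to 2185 TPM in the aCD3 libraries and 2021 to 2311 TPM in the isotype libraries, with M1, M2 and M5 below every isotype library. Of these 8 genes Thy1 alone passed the test, being lower (log2 fold change -0.54, SE 0.14, limma adjusted p = 0.0481). The deposited TPM were divided by the whole genomic span of each gene, introns included, so levels are compared between libraries and not between genes. Between 6765529 and 17860611 reads in genes lay behind each GF library. The summed TPM of listed genes ran from 679994 to 762188 in aCD3 and from 680410 to 708515 in isotype libraries. The column names hold sample numbers that fall into a series from 25 to 33 (aCD3 M1, M2 and M3 and 6 isotype libraries) and a series from 48 to 54 (aCD3 F1, M4 and M5 and 4 isotype libraries). The labels do not say what these numbers mark, and values within each series are given for the leading genes.

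The 6 aCD3 libraries did not form 1 group. M1, M2 and M5 stood apart from F1, M3 and M4 in most of the genes below, each of the 2 number series held libraries of both kinds, and the summed TPM of M1, M2 and M5 lay above every isotype library while those of F1, M3 and M4 did not. For the leading genes the value of every aCD3 library is therefore given beside the mean effect. The libraries were not regrouped by these values, and no library was left out of the main test.

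Of 12182 tested genes 862 (7.08%) passed an adjusted p under 0.05 for GF aCD3 against GF isotype, 300 of them higher (2.46%) and 562 lower (4.61%) with aCD3. The test was limma on log2(TPM + 1), with a sex term and a spread shared by all 28 libraries. It was a close call: the smallest adjusted p was 0.0481, and 3307 genes had one under 0.10. When the spread was estimated from the 16 GF libraries alone, 0 genes passed in limma, with 2420 at an unadjusted p under 0.05 and a smallest adjusted p of 0.249. A limma fit that let the spread differ by group also gave 0 (3145 at an unadjusted p under 0.05, smallest adjusted p 0.0782). The limma count was 0 too with a pseudocount of 0.1 (4339), without a low-value filter (4963) or when M1, M2, M5 or any 1 isotype library was left out (2535 to 4318), so every call below is lost there. It was 3630 without F1, 4213 without M3 and 3859 without M4. Fits of 1 number series at a time kept all SPF libraries. They gave 1647 genes for the series 25 to 33 and 0 for the series 48 to 54 (1700 at an unadjusted p under 0.05). With voom on reads recovered from the TPM the count was 948. The median gene differed by -0.15 on the log2 scale, and scaling by the median of ratios brought this to -0.01. That scaling gave 1185 genes, 685 higher and 500 lower, so the split between higher and lower calls depended on the scaling. Each list below is to be read against these shares of all tested genes and their median, and for most lists whose count differs under that scaling the scaled count is given too.

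The spread within the aCD3 group showed in the number of genes that lay outside the range of the 10 isotype libraries. M1 lay below that range in 5790 genes, M2 in 5774 and M5 in 6428, against 1094 in F1, 507 in M3 and 772 in M4. An isotype library lay below the other 9 in 521 to 1717 genes, and the counts of F1, M3 and M4 did not exceed these. The references are unlike, since a range of 9 libraries is left more easily than one of 10. Above the range M3 had 2355 genes, M2 1748, M1 1687 and M5 1488, and isotype libraries had 459 to 2755 above the other 9. After scaling by the median of ratios the counts evened out: 29% to 30.0% of tested genes lay above and 27.5% to 28.5% below in M1, M2 and M5, against 7.91% to 9.83% above and 7.18% to 8.6% below in F1, M3 and M4. Exactly 3 aCD3 libraries lay above the isotype range in 875 genes, and in 689 of these the 3 were M1, M2 and M5. For genes with exactly 3 aCD3 libraries below the range the corresponding counts were 4132 and 3852. The values of M1, M2 and M5 fell within the range of the 6 SPF aCD3 libraries for 49.6%, 49.7% and 65.0% of tested genes, and those of F1, M3 and M4 for 23.3%, 22.7% and 23.7%.

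**Figure D1:**
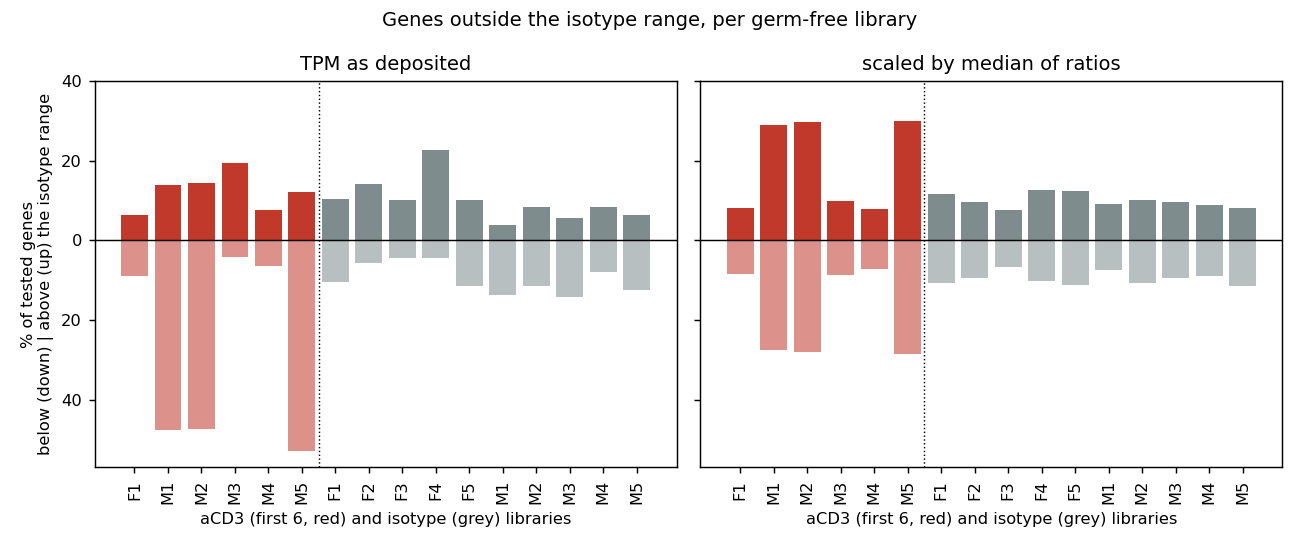
Share of the 12182 tested genes, in %, whose value in a library lay above (upward bars) or below (downward, paler bars) the range of the isotype libraries, for the 6 aCD3 (red) and 10 isotype (grey, each against the other 9) libraries, on TPM as deposited (left) and after scaling by the median of ratios (right). M1, M2 and M5 leave the range in far more genes than the other aCD3 libraries, up to 52.8% below in M5 on the left.

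Genes of inhibitory receptors were among those with the highest log2 fold changes, and M1, M2 and M5 carried them. In bulk RNA, fewer or more cells that express a gene and less or more RNA per cell cannot be told apart. Lag3 (NM_008479, chromosome 6, 124904359 to 124911705), the MHC class II-binding inhibitory receptor of activated and Tr1 cells, was at 9.59 TPM in F1, 498 in M1, 452 in M2, 17 in M3, 12.3 in M4 and 527 in M5. The lowest, median and highest isotype values were 5.41, 11 and 18.5 TPM. M1, M2 and M5 lay far above every isotype library, and F1, M3 and M4 lay within the isotype range. The mean effect passed the test (log2 fold change 2.64, SE 0.68, limma adjusted p = 0.0481) and was 3.62 in the series 25 to 33 and 1.94 in the series 48 to 54.

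Ptms, which encodes the small acidic protein parathymosin, begins 1969 bases beyond the annotated end of Lag3 and was at 26.9 TPM in F1, 269 in M1, 267 in M2, 39.7 in M3, 30.7 in M4 and 223 in M5. Its isotype range was 18.4 to 43.1 TPM, and it rose in the test (log2 fold change 1.48, SE 0.41, limma adjusted p = 0.0481). Whether reads that run on from one of these neighbours add to the other was not tested. Havcr2, the gene of the inhibitory receptor TIM-3, was at 0.462 TPM in F1, 10.6 in M1, 17.2 in M2, 1.37 in M3, 0.521 in M4 and 30.8 in M5, with isotype values of 0.392 to 1.18 TPM (log2 fold change 1.64, SE 0.47, limma adjusted p = 0.0481). Here M3 lay above the isotype range too, but only just. Pdcd1, which encodes PD-1, was at 18.5 TPM in F1, 41.9 in M1, 32.4 in M2, 20.5 in M3, 20.2 in M4 and 26.7 in M5. Its isotype range was 9.93 to 19.5 TPM, so that 5 of the 6 aCD3 libraries lay above it and F1 within it (log2 fold change 0.79, SE 0.18, limma adjusted p = 0.0481).

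Of the 14 tested co-inhibitory receptor genes 3 rose (Lag3, Havcr2 and Pdcd1), and Cd274, which encodes the PD-1 ligand PD-L1, fell (log2 fold change -0.61, SE 0.16, limma adjusted p = 0.0481). Cd274 was at 28.7 TPM in F1, 16.9 in M1, 16.1 in M2, 39.4 in M3, 28.9 in M4 and 13.4 in M5, with isotype values of 31.2 to 39.2 TPM, so M3 lay just above that range and the other 5 below it. The median log2 fold change of the list was -0.02, against -0.15 over all tested genes. Tigit and Ctla4, receptors that restrain costimulation, missed the threshold (0.66, limma adjusted p = 0.0517 and 0.48, limma adjusted p = 0.088), and Tigit passed it after scaling by the median of ratios (0.82, limma adjusted p = 0.0432). Tigit was above the isotype range in M1, M2 and M5, and Ctla4 in those and in M3.

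Il10 (NM_010548, chromosome 1, 131019845 to 131024970) is the gene of the anti-inflammatory cytokine interleukin-10. It was at 93.5 TPM in F1, 403 in M1, 588 in M2, 109 in M3, 141 in M4 and 630.0 in M5, against 44.3, 129 and 165 TPM (lowest, median and highest) in isotype libraries. Every isotype library lay below M1, M2 and M5, and F1, M3 and M4 were within the isotype range. The mean effect missed the threshold (log2 fold change 1.11, SE 0.36, limma adjusted p = 0.0537) and passed it after scaling by the median of ratios (1.28, limma adjusted p = 0.049). It was 1.30 in the series 25 to 33 and 1.08 in the series 48 to 54. Of the 20 tested Tr1-associated genes 1 rose (Lag3) and 1 fell (Irf1), against 2.46% and 4.61% of all tested genes, with a median of 0.09. With median of ratios scaling 4 rose and 2 fell.

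**Figure D2:**
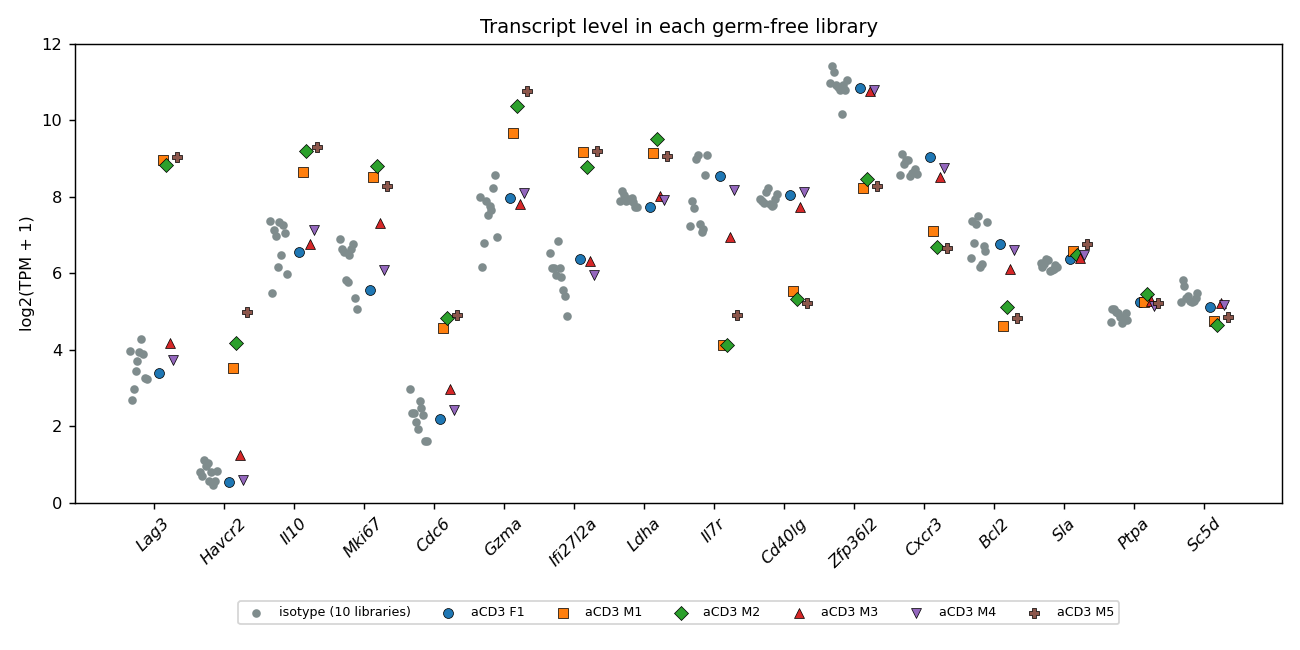
Level of 16 genes, as log2(TPM + 1), in the 10 isotype libraries (grey points) and in each aCD3 library (coloured symbols, 1 per library). For Lag3, Il10 and Cdc6 the symbols of M1, M2 and M5 lie above the grey points, for Il7r, Cd40lg and Zfp36l2 below them, and for Sla, Ptpa and Sc5d all 6 symbols lie on 1 side of the grey points.

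The genes that define helper lineages did not pass the test. Tbx21, which encodes T-bet, the master regulator of Th1 cells, was at 95.1 TPM in F1, 54.8 in M1, 56.2 in M2, 83.6 in M3, 83.6 in M4 and 49.4 in M5. Isotype libraries ran from 78.1 to 121 TPM, so M1, M2 and M5 lay below all of them, yet the effect missed the threshold (log2 fold change -0.39, SE 0.14, limma adjusted p = 0.0628). Ifng, the gene of the Th1 cytokine interferon-gamma, was at 180.1 to 255 TPM with aCD3 and 177 to 306 TPM with isotype (log2 fold change -0.06, SE 0.12, limma adjusted p = 0.745), and every aCD3 library lay within the isotype range. Its sign turned after scaling by the median of ratios (log2 fold change 0.11). Of the 19 tested Th1 genes 2 fell: Cxcr3, the receptor for the interferon-induced chemokines (log2 fold change -0.89, SE 0.27, limma adjusted p = 0.0488), and Tnf, the gene of tumour necrosis factor (log2 fold change -0.50, SE 0.15, limma adjusted p = 0.0499). Cxcr3 was at 523 TPM in F1, 137 in M1, 102 in M2, 364 in M3, 429.5 in M4 and 100.2 in M5, and its isotype range was 372 to 558 TPM. Tnf lost its call after scaling by the median of ratios (-0.33, limma adjusted p = 0.0695).

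Gata3, the regulator of type 2 cells, was at 35.3 to 98.2 TPM with aCD3 and 55.6 to 110.4 TPM with isotype, and only M5 left the isotype range (log2 fold change -0.29, SE 0.17, limma adjusted p = 0.22). None of the 11 tested type 2 genes and none of the 15 tested Th17 genes passed, and after scaling by the median of ratios 1 of the Th17 genes did. Among the latter Rora, which encodes an orphan nuclear receptor of Th17 and innate-like cells, had the values 55.5 TPM in F1, 33.2 in M1, 31.4 in M2, 112 in M3, 80.8 in M4 and 24.8 in M5. Its isotype range was 43.9 to 87.8 TPM, so M1, M2 and M5 lay below it and M3 above it (log2 fold change -0.46, SE 0.24, limma adjusted p = 0.169).

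Foxp3, the regulator of regulatory T cells (Treg), was at 12.7 TPM in F1, 39.5 in M1, 65.7 in M2, 31.5 in M3, 16.8 in M4 and 39.2 in M5. Its isotype range was wide, 9.47 to 50.1 TPM, and M2 alone exceeded it (log2 fold change 0.46, SE 0.32, limma adjusted p = 0.295). With the number series as a covariate Foxp3 passed the threshold (0.61, limma adjusted p = 0.0463). Of 17 tested Treg genes 1 rose, Tnfrsf9, and the median was 0.41. On the median of ratios scale 3 rose. M1 lay above the isotype range in 12 of the 17, M2 in 13 and M5 in 9, against 1 in F1, 4 in M3 and 0 in M4. Over all tested genes M1, M2 and M5 lay above it in 13.8%, 14.3% and 12.2%. For F1, M3 and M4 that share was 6.44%, 19.3% and 7.6%. Gpr83, a receptor gene used as a Treg marker, missed the threshold (0.74, limma adjusted p = 0.0507) and passed it after scaling by the median of ratios (0.85, limma adjusted p = 0.0432). Among 12 tested follicular helper genes Pdcd1 rose and Cd40lg fell.

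Cell division genes held more risers than any other list. Of 54 tested genes of S phase and replication 27 rose and 0 fell, with a median log2 fold change of 0.77. With median of ratios scaling 41 rose. Of 66 tested genes of mitosis and G2/M 29 rose and 1 fell, with a median of 1.00, and 40 rose and 1 fell with that scaling. M1, M2 and M5 lay above the isotype range in 52, 53 and 52 of the 54 replication genes, M3 in 24, F1 in 0 and M4 in 1. In the mitosis list the counts were 64 in each of M1, M2 and M5, 39 in M3, 0 in F1 and 1 in M4. Over all tested genes M1, M2 and M5 lay above the range in 13.8%, 14.3% and 12.2%. For M3, F1 and M4 that share was 19.3%, 6.44% and 7.6%.

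Cdc6, which loads the replicative helicase onto origins, was at 3.57 TPM in F1, 22.9 in M1, 27.4 in M2, 6.93 in M3, 4.43 in M4 and 29.1 in M5. Isotype values were 2.07, 4.01 and 6.94 TPM (lowest, median and highest), so M1, M2 and M5 were above all of them and M3 was just inside (log2 fold change 1.46, SE 0.35, limma adjusted p = 0.0481). The effect was 1.84 in the series 25 to 33 and 1.40 in the series 48 to 54. Mcm10, another origin factor, was at 2.04 TPM in F1, 16.9 in M1, 18 in M2, 4.61 in M3, 2.71 in M4 and 18.6 in M5, with isotype values of 1.3 to 3.14 TPM (log2 fold change 1.38, SE 0.33, limma adjusted p = 0.0481). Mcm6, a subunit of the helicase itself, was at 38.9 TPM in F1, 129 in M1, 145 in M2, 49.9 in M3, 44.4 in M4 and 149.6 in M5, against 34.1 to 48 TPM (log2 fold change 0.93, SE 0.23, limma adjusted p = 0.0481). In both Mcm genes M3 lay a little above the isotype range. Rrm2, the regulated subunit of ribonucleotide reductase, ran from 33.5 to 277 TPM with aCD3 and from 20.6 to 59.8 TPM with isotype (log2 fold change 1.45, SE 0.37, limma adjusted p = 0.0481).

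Mki67, the gene of the proliferation marker Ki-67, was at 46.5 TPM in F1, 368 in M1, 447 in M2, 159.7 in M3, 67.6 in M4 and 311 in M5, and the isotype range was 32.7 to 118 TPM. M3 exceeded that range together with M1, M2 and M5. The mean effect missed the threshold (log2 fold change 1.24, SE 0.39, limma adjusted p = 0.0522) and passed after scaling by the median of ratios (1.41, limma adjusted p = 0.0464). Birc5, which encodes the chromosomal passenger protein survivin, was at 9.06 TPM in F1, 74.2 in M1, 77.2 in M2, 16.9 in M3, 10.6 in M4 and 87.3 in M5, with isotype values of 4.38 to 20.9 TPM (log2 fold change 1.48, SE 0.46, limma adjusted p = 0.0499). Cdk1, the kinase that drives mitosis, was at 4.25 TPM in F1, 22.5 in M1, 22.4 in M2, 7.81 in M3, 3.6 in M4 and 23.8 in M5, against 2.77 to 7.28 TPM (log2 fold change 1.12, SE 0.33, limma adjusted p = 0.0484). The 1 member of the mitosis list that fell was Pttg1, the gene of securin (log2 fold change -0.50, SE 0.12, limma adjusted p = 0.0481).

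The promoters of these genes were searched for letters that E2F factors and the cell cycle element CHR are known by, because the members moved together. The RefSeq windows used (GRCm38.p6) run from 250 bases before to 50 after a start, and a match is a description of the letters, not a binding site. TTTNNCGC, read on both strands, was in 20 of the 43 S phase genes with a window (46.5%) and in 13 of the 24 risers with a window, against 5.93% of 27025 genes. TTTGAA, also read on both strands, was in 37 of 53 mitosis genes (69.8%), against 20.2% of all genes. 3 windows are shown for genes that rose, with the letters of each match in capitals (E2F letters for Cdc6 and Mcm6, CHR letters for Cdk1), where matches on the 2 strands of Mcm6 overlap.
Cdc6 (chr11:98907901-98908200, plus strand): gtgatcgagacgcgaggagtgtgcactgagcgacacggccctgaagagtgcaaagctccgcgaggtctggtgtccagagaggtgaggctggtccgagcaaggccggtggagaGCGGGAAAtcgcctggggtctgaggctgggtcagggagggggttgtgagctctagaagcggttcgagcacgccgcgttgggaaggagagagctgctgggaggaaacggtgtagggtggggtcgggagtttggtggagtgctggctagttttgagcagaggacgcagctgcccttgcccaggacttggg
Mcm6 (chr1:128359656-128359955, minus strand): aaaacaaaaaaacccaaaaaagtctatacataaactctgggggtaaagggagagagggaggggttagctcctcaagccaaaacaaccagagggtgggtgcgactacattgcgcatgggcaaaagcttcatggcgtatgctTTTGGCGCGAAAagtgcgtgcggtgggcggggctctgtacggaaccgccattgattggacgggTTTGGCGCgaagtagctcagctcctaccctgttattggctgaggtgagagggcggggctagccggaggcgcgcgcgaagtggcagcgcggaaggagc
Cdk1 (chr10:69352863-69353162, minus strand): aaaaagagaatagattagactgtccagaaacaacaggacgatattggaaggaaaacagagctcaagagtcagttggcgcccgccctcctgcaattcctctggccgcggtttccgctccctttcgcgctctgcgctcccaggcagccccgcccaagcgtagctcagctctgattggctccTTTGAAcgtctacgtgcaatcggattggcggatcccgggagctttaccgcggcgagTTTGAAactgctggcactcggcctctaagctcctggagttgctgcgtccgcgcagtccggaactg

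Histone transcripts followed the same libraries. The 69 histone genes took 5.39% of summed TPM in F1, 23.4% in M1, 23.1% in M2, 7.46% in M3, 6.43% in M4 and 26% in M5. The isotype libraries ran from 3.79% to 9.24% with a median of 6.34%, so F1, M3 and M4 lay within that range and the other 3 above it. The means were 15.3% ± 9.78 (SD, n = 6) and 6.58% ± 1.83 (SD, n = 10), and the difference of 8.71 percentage points had an exact permutation p of 0.0395 (two-sided). That p was 0.105 without M1, M2 or M5. It was also above 0.05 without isotype F2, F4, F5, M4 or M5. Because histone genes are short and TPM divides by span, their share of recovered reads was lower, 1.01% ± 0.763 against 0.346% ± 0.108 (SD; two-sided exact permutation p = 0.0437).

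Of the 67 tested histone genes 10 rose and 0 fell, with a median of 1.05. On the median of ratios scale 21 rose. M1 exceeded the isotype range in 65 of the 67, M2 in 66 and M5 in 66, M3 in 0, and F1 and M4 in 2 each. Over all tested genes M1, M2 and M5 exceeded it in 13.8%, 14.3% and 12.2%. For M3, F1 and M4 that share was 19.3%, 6.44% and 7.6%. Hist1h2bm, a gene of histone H2B, was at 280.5 TPM in F1, 1727 in M1, 1808 in M2, 386 in M3, 354 in M4 and 2528 in M5, with isotype values of 121 to 503 TPM (log2 fold change 1.47, SE 0.43, limma adjusted p = 0.0484). Hist1h2ag, a gene of histone H2A, was at 267 TPM in F1, 1716 in M1, 1559 in M2, 336 in M3, 294 in M4 and 1811 in M5, with isotype values of 107 to 477 TPM (log2 fold change 1.46, SE 0.41, limma adjusted p = 0.0481). Histone genes are near-identical copies, and how the authors' counting shared reads between them is not given in the sources used here. The labels name both a total RNA kit and polyA RNA, and most histone messages have no polyA tail.

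**Figure D3:**
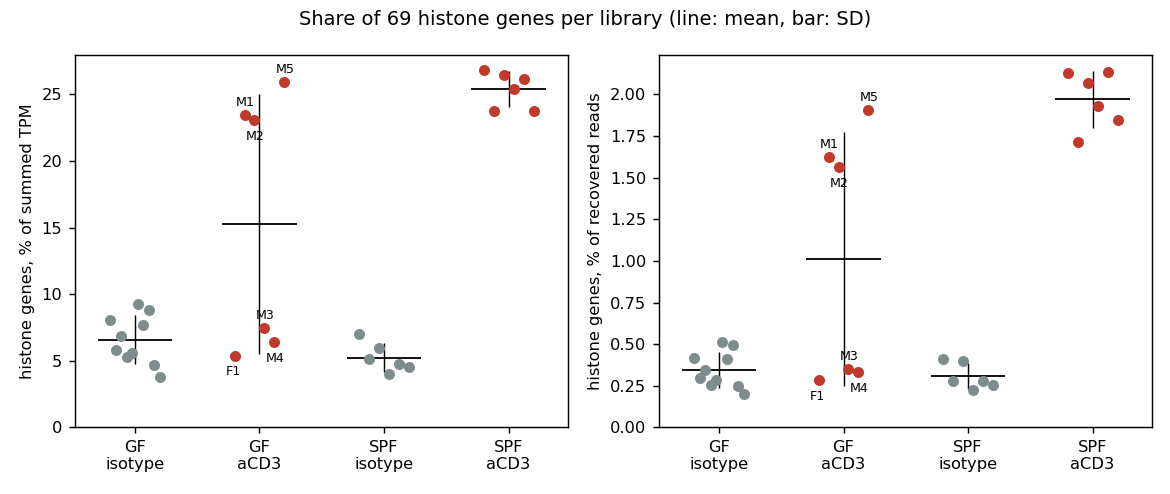
Share of 69 histone genes in % of summed TPM (left) and in % of recovered reads (right), 1 point per library in the 4 groups, with the mean (line) and SD (bar). M1, M2 and M5 of the GF aCD3 group lie between 23.1% and 26% of TPM, near the SPF aCD3 libraries (23.8% to 26.8%), and F1, M3 and M4 lie among the isotype libraries.

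Of 25 tested early genes of T cell receptor signalling 5 fell and 0 rose (4.61% and 2.46% of all tested genes), with a median log2 fold change of -0.42 against -0.15 over all genes: Fos, Fosb and Jun of the AP-1 transcription factor, the phosphatase gene Dusp1 and Cd69, an early activation and tissue retention marker. Fos was at 1034 TPM in F1, 956 in M1, 726 in M2, 1796 in M3, 1064 in M4 and 384 in M5, against 934, 1498 and 2437 TPM (lowest, median and highest) in isotype libraries (log2 fold change -0.91, SE 0.23, limma adjusted p = 0.0481). Only M2 and M5 lay below the isotype range of Fos. M3 lay above the isotype range in 5 of the 25 genes (19.3% over all tested genes) and had a list median of 0.41 above the isotype mean on the log2 scale. The list medians of isotype libraries ran from -0.56 to 0.46, and of the aCD3 libraries only M5 (-1.23) left that range. Jun was at 494 TPM in F1, 542 in M1, 381 in M2, 1090.1 in M3, 639 in M4 and 224 in M5, with isotype values of 504 to 1344 TPM (log2 fold change -0.83, SE 0.23, limma adjusted p = 0.0481). Here F1, M2 and M5 lay below. Dusp1 and Cd69 had log2 fold changes of -0.77, limma adjusted p = 0.0481 and -0.69, limma adjusted p = 0.0481. Fosb (-0.77, limma adjusted p = 0.0484) lost its call after scaling by the median of ratios (-0.60, limma adjusted p = 0.0518).

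Few genes of the receptor complex itself passed. Of 21 tested genes of the complex and its proximal signalling 1 passed, Zap70, the kinase that binds the phosphorylated CD3 chains, and after scaling by the median of ratios 2 rose and 1 fell. It was at 254 TPM in F1, 384 in M1, 412 in M2, 281 in M3, 264 in M4 and 339.5 in M5, with isotype values of 207 to 297 TPM (log2 fold change 0.38, SE 0.10, limma adjusted p = 0.0481). In the same list M1, M2 and M5 lay below the isotype range in 12, 13 and 16 genes and F1, M3 and M4 in 2, 0 and 1. Over all tested genes M1, M2 and M5 were below it in 47.5%, 47.4% and 52.8%. The list medians of these libraries relative to the isotype mean, -0.58, -0.60 and -0.52 on the log2 scale, moved to -0.22, -0.24 and -0.05 after scaling by the median of ratios. Rgs16, which encodes a brake on G protein signalling, was at 3.26 TPM in F1, 39.7 in M1, 28 in M2, 12.1 in M3, 4.17 in M4 and 28.6 in M5, with isotype values of 1.41 to 12.3 TPM (log2 fold change 1.47, SE 0.44, limma adjusted p = 0.0484).

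Of 12 tested costimulation genes 10 did not pass. Tnfrsf9, the gene of the activation-induced receptor 4-1BB, rose (log2 fold change 0.91, SE 0.28, limma adjusted p = 0.0493), and Cd40lg, the gene of the helper ligand CD154, fell (log2 fold change -1.18, SE 0.34, limma adjusted p = 0.0484). Tnfrsf9 was at 6.79 TPM in F1, 35.8 in M1, 37.1 in M2, 17.8 in M3, 10.6 in M4 and 40.9 in M5, with isotype values of 7.33 to 15.1 TPM. Cd40lg was at 266 TPM in F1, 45.6 in M1, 39.3 in M2, 212 in M3, 282 in M4 and 36.4 in M5, against 218 to 302 TPM. Here the 3 libraries M1, M2 and M5 were far below every isotype library, and M3 was just under them. After scaling by the median of ratios 1 costimulation gene rose and 2 fell.

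Of 19 tested receptors and survival factors of the common gamma chain cytokines 4 fell, 0 rose and 15 did not pass, with a median of -0.32. With median of ratios scaling 4 fell and 1 rose, and the median was -0.15. Il7r (NM_008372, chromosome 15, 9506159 to 9529876), the interleukin-7 receptor chain that keeps resting T cells alive, was at 377 TPM in F1, 16.4 in M1, 16.7 in M2, 122 in M3, 287 in M4 and 29 in M5. Isotype values were 136, 223 and 551 TPM (lowest, median and highest), and M1, M2 and M5 lay far below all of them, M3 slightly. It had the lowest log2 fold change of the named genes that passed (log2 fold change -1.77, SE 0.55, limma adjusted p = 0.0499), and it was -2.40 in the series 25 to 33 and -1.72 in the series 48 to 54.

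Bcl2, the anti-apoptotic factor that interleukin-7 sustains, was at 108 TPM in F1, 23.5 in M1, 34 in M2, 68.4 in M3, 96.7 in M4 and 27.3 in M5, with isotype values of 71.1 to 180.3 TPM (log2 fold change -0.98, SE 0.26, limma adjusted p = 0.0481). M3 lay below that range with M1, M2 and M5. Socs2, a cytokine signalling inhibitor, was at 61.8 TPM in F1, 27.7 in M1, 31 in M2, 49.5 in M3, 45.2 in M4 and 38.4 in M5, with a wide isotype range of 35.6 to 199 TPM (log2 fold change -0.95, SE 0.24, limma adjusted p = 0.0481). Osm, the gene of oncostatin M, fell as well (log2 fold change -0.68, SE 0.18, limma adjusted p = 0.0481). Of 25 tested apoptosis genes 3 fell, 0 rose and the median was -0.14, while after scaling by the median of ratios 4 fell and 3 rose. The 3 were Bcl2 and the pro-apoptotic Bbc3 (-0.94, limma adjusted p = 0.0481) and Tnfrsf10b (-0.81, limma adjusted p = 0.0481), which encode PUMA and a TRAIL receptor. Bbc3 was below the isotype range in 5 of the 6 aCD3 libraries, with M3 as the exception.

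Among 15 tested naive and central memory genes Ccr7 rose and Il7r fell (2 rose and 1 fell after scaling by the median of ratios). Ccr7, the lymph node homing receptor, was at 2.24 TPM in F1, 43.9 in M1, 26.4 in M2, 3.28 in M3, 2.38 in M4 and 9.39 in M5, with isotype values of 1.12 to 4.79 TPM (log2 fold change 1.51, SE 0.47, limma adjusted p = 0.0499). With a pseudocount of 5 its call was lost (1.02, limma adjusted p = 0.0577). Of 20 tested chemokine receptor and homing genes 1 rose, Ccr7, and 3 fell: Cxcr3, the oxysterol receptor gene Gpr183 (-0.70, limma adjusted p = 0.0481) and the integrin chain gene Itgb1 (-0.59, limma adjusted p = 0.0481). The median was -0.20, and 4 fell and 1 rose after scaling by the median of ratios. Of 14 tested tissue residency genes 2 fell, Cd69 and Rgs1 (-0.60, limma adjusted p = 0.0481), the latter a regulator of chemokine receptor signalling, and the median was -0.35.

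The cytotoxic list held 2 risers and 2 fallers among 17 tested. Gzma, the gene of the granule protease granzyme A, was at 251 TPM in F1, 812 in M1, 1332 in M2, 223 in M3, 274 in M4 and 1735 in M5, with isotype values of 71.1, 208 and 379.8 TPM (lowest, median and highest; log2 fold change 1.46, SE 0.41, limma adjusted p = 0.0481). Again M1, M2 and M5 were well above every isotype library. Cst7, which encodes the protease inhibitor cystatin F, rose (log2 fold change 0.56, SE 0.17, limma adjusted p = 0.0488). The NK-type receptor genes Klrb1c, which encodes NK1.1, and Klrk1, which encodes NKG2D, fell (log2 fold change -1.31, SE 0.36, limma adjusted p = 0.0481 and log2 fold change -0.88, SE 0.25, limma adjusted p = 0.0481). Klrb1c was at 18.7 TPM in F1, 2.17 in M1, 1.59 in M2, 12.4 in M3, 15 in M4 and 2.5 in M5, with isotype values of 9.03 to 48.2 TPM. Clec2i, the gene of a ligand for the related receptor family, was at 26.2 TPM in F1, 5.82 in M1, 2.38 in M2, 24.3 in M3, 35 in M4 and 0.82 in M5 and fell (log2 fold change -1.44, SE 0.44, limma adjusted p = 0.0493), with isotype values of 21.7 to 39.5 TPM.

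Of 57 tested interferon-stimulated genes 2 rose and 2 fell (2.46% and 4.61% of all tested genes), with a median of 0.15 against -0.15 over all genes. A log2 fold change above 0 was found in 41 of the 57, against 3606 of all 12182. M1, M2 and M5 lay above the isotype range in 22, 19 and 19 of the 57 (13.8%, 14.3% and 12.2% over all tested genes), and F1, M3 and M4 in 0, 1 and 1. With median of ratios scaling 4 rose and 2 fell. Ifi27l2a, a small mitochondrial interferon-induced gene, was at 81.7 TPM in F1, 574 in M1, 437 in M2, 78.9 in M3, 61.3 in M4 and 583 in M5, against 28.4, 65.3 and 115 TPM (lowest, median and highest; log2 fold change 1.80, SE 0.44, limma adjusted p = 0.0481). Eif2ak2, which encodes the double-stranded RNA sensor PKR, was at 10.9 TPM in F1, 19.1 in M1, 20.7 in M2, 11.4 in M3, 10.8 in M4 and 24.5 in M5, with isotype values of 6.78 to 13.8 TPM (log2 fold change 0.68, SE 0.17, limma adjusted p = 0.0481). In both, M1, M2 and M5 lay above every isotype library and the other 3 aCD3 libraries within the range. Irf1, an interferon-gamma-induced transcription factor, fell (log2 fold change -0.58, SE 0.15, limma adjusted p = 0.0481), and so did Ifi208, of the DNA-sensing family (log2 fold change -1.05, SE 0.26, limma adjusted p = 0.0481).

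The letters AAANNGAAA of the interferon-stimulated response element, read on both strands, were in 29 of 41 list members with a promoter window (70.7%), against 12.1% of all genes. The letters were in the 1 riser with a window and in 1 of the 2 fallers with a window, Ifi208. The window of Eif2ak2, which rose, is shown with the match in capitals.
Eif2ak2 (chr17:78882523-78882822, minus strand): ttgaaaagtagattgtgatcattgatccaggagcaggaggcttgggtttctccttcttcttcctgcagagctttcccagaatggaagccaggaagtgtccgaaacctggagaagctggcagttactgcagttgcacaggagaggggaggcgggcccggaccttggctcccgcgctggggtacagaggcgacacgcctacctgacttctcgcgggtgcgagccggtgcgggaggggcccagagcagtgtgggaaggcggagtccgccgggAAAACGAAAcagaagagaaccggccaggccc

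Guanylate-binding proteins and immunity-related GTPases, which interferon-gamma induces, held no riser. Of 18 tested members 0 rose and 2 fell, Gbp2 (-0.70, limma adjusted p = 0.0481) and Tgtp1 (-0.58, limma adjusted p = 0.0499), and the median was -0.21. The isotype range was undercut in 13 of the 18 by M1, in 13 by M2 and in 12 by M5, and exceeded by none of the 6 libraries. These counts stand against 47.5%, 47.4% and 52.8% of all tested genes, which M1, M2 and M5 undercut in the same way. After scaling by the median of ratios the median of the log2 fold changes was -0.05. Among 20 tested MHC class I and immunoproteasome genes 1 fell, B2m (-0.34, limma adjusted p = 0.0484), the light chain of MHC class I. After scaling by the median of ratios the calls of Tgtp1 (-0.41, limma adjusted p = 0.053) and B2m (-0.17, limma adjusted p = 0.158) were lost.

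Of 23 tested glycolysis genes 3 rose and 1 fell, with a median of 0.02. Scaled by median of ratios, 4 rose and 0 fell. Ldha, the gene of lactate dehydrogenase A, was at 214 TPM in F1, 564 in M1, 729.7 in M2, 258 in M3, 239.8 in M4 and 539 in M5, with isotype values of 211 to 285 TPM (log2 fold change 0.65, SE 0.20, limma adjusted p = 0.0484). Tpi1 and Pkm, which encode triosephosphate isomerase and pyruvate kinase, had log2 fold changes of 0.88, limma adjusted p = 0.0481 and 0.53, limma adjusted p = 0.0484. Slc2a1, the gene of the glucose transporter GLUT1, fell (-0.48, limma adjusted p = 0.0488), a call lost after scaling by the median of ratios (-0.32, limma adjusted p = 0.0748).

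Of the metabolic lists, that of sterol genes had the most members past the threshold on the lower side. Of 33 tested genes of cholesterol and fatty acid synthesis 7 fell and 0 rose, with a median of -0.23. Scaled by median of ratios, 5 fell and 0 rose. Those that fell on TPM included Msmo1, Sqle, Mvd, Sc5d, Cyp51 and Hsd17b7. Msmo1, a sterol demethylation enzyme, was at 22.8 TPM in F1, 13.3 in M1, 13.7 in M2, 24.9 in M3, 22.4 in M4 and 16.8 in M5, with isotype values of 24.2 to 34.6 TPM (log2 fold change -0.56, SE 0.14, limma adjusted p = 0.0481). M3 was the 1 aCD3 library inside that range. Sqle, the gene of squalene epoxidase, was at 13.1 TPM in F1, 8.29 in M1, 9.93 in M2, 20.0 in M3, 13.1 in M4 and 9.66 in M5, with isotype values of 15.2 to 22.2 TPM (log2 fold change -0.55, SE 0.14, limma adjusted p = 0.0481). Mvd (-0.50, limma adjusted p = 0.0481) kept its call after scaling by the median of ratios, while Cyp51 (-0.48, limma adjusted p = 0.04999) and Hsd17b7 (-0.51, limma adjusted p = 0.0499) lost theirs (-0.32, limma adjusted p = 0.0619 and -0.36, limma adjusted p = 0.0649). The sterol element letters TCACNCCAC were in 1 of 23 list members with a window, against 1.44% of all genes.

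Of 70 tested oxidative phosphorylation genes 7 rose and 0 fell, with a median of 0.14. Scaled by median of ratios, 12 rose. Examples were Sdhb of complex II (log2 fold change 0.30, SE 0.09, limma adjusted p = 0.0481) and Cox5a of complex IV (log2 fold change 0.31, SE 0.09, limma adjusted p = 0.0481). Sdhb was at 18.9 TPM in F1, 29.2 in M1, 29.7 in M2, 21.3 in M3, 22.3 in M4 and 27.1 in M5, with isotype values of 17.3 to 21.7 TPM. The isotype range was exceeded in 40, 38 and 31 of the 70 genes by M1, M2 and M5, and in 4, 2 and 4 by F1, M3 and M4. Over all tested genes M1, M2 and M5 exceeded it in 13.8%, 14.3% and 12.2%. For F1, M3 and M4 that share was 6.44%, 19.3% and 7.6%. Of 68 tested cytosolic ribosomal protein genes 0 passed, and 9 of them had an unadjusted p under 0.05 in the limma fit of the GF libraries alone (1 higher, 8 lower), a smaller share than the 2420 of 12182 over all genes in that fit.

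Among 30 tested genes of endoplasmic reticulum folding the chaperone cofactor genes Sdf2l1 (log2 fold change 0.84, SE 0.20, limma adjusted p = 0.0481) and Creld2 (log2 fold change 0.64, SE 0.19, limma adjusted p = 0.0484) rose and the co-chaperone gene Dnajb9 fell (log2 fold change -0.64, SE 0.20, limma adjusted p = 0.0499). Sdf2l1 was at 48.2 TPM in F1, 74.8 in M1, 120.0 in M2, 50.4 in M3, 34.9 in M4 and 84.8 in M5, with isotype values of 27.8 to 43.2 TPM. All aCD3 libraries but M4 lay above them. Of 32 tested tRNA synthetase and ATF4 response genes Psat1 (0.69, limma adjusted p = 0.0481), of serine synthesis, and Shmt1 (0.50, limma adjusted p = 0.0481), of one-carbon metabolism, rose. Of 8 tested members of a list of amino acid transporters only Slc43a3 passed (0.64, limma adjusted p = 0.0484), whose product is known to carry purine nucleobases and not amino acids. Of 32 proteasome genes the assembly factor gene Pomp rose (0.24, limma adjusted p = 0.0481), and of 16 heat shock genes Dnajb4 fell (-0.93, limma adjusted p = 0.0481). With median of ratios scaling 6 folding genes rose and 1 fell, 4 of the tRNA synthetase and ATF4 genes rose, and 6 proteasome genes rose. Of 38 ribosome biogenesis genes Wdr43 (-0.53, limma adjusted p = 0.0481) and Nat10 (-0.37, limma adjusted p = 0.0481) fell, the latter call being lost after scaling by the median of ratios (-0.23, limma adjusted p = 0.0553). On TPM 2.46% of all tested genes rose and 4.61% fell. The TPM counts of the proteasome, heat shock and ribosome biogenesis lists were near these shares.

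**Figure D4:**
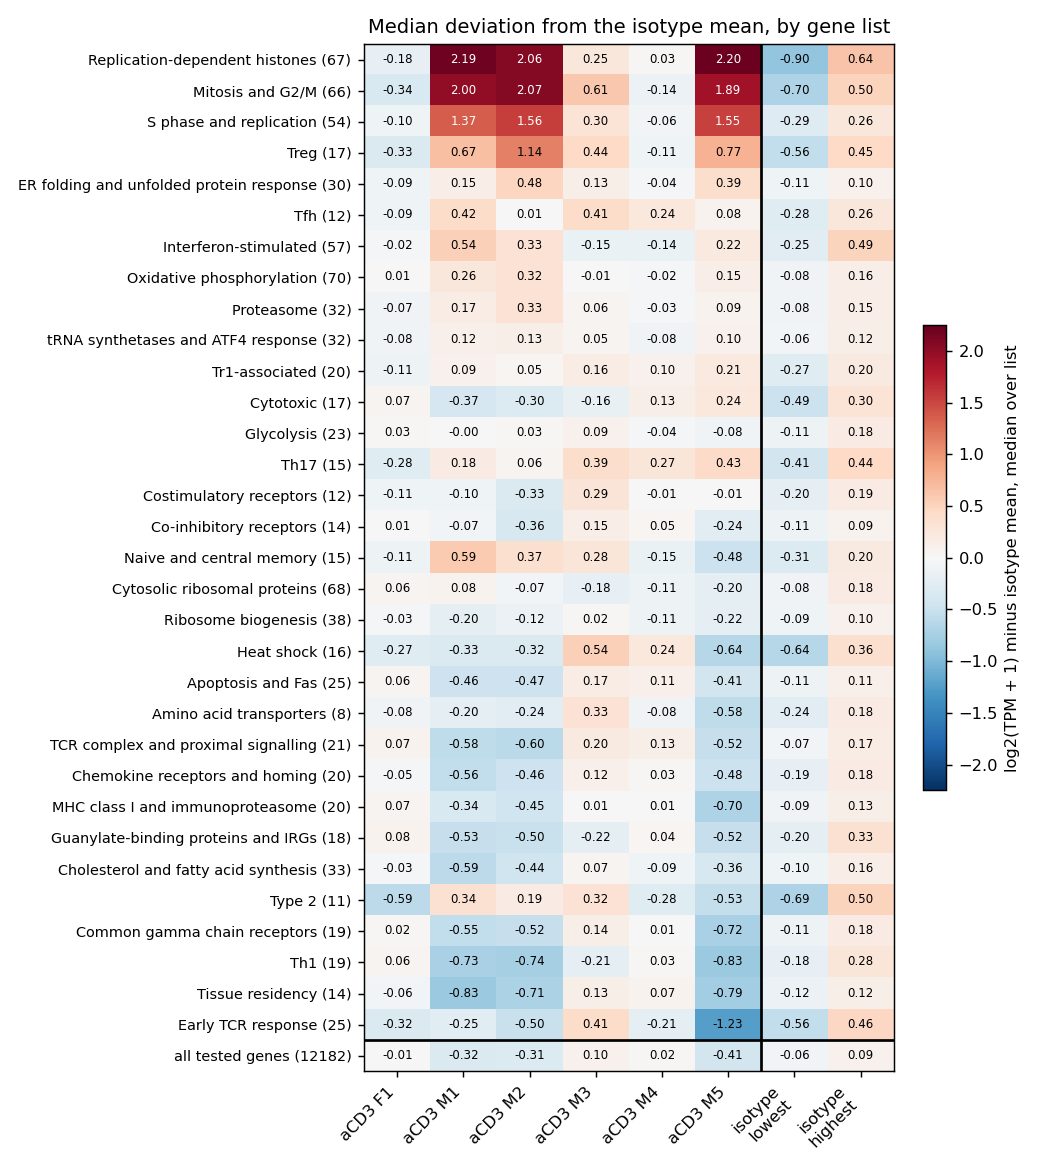
Median over each gene list (rows, number of tested genes in brackets) of log2(TPM + 1) minus the isotype mean, in each aCD3 library and as the lowest and highest isotype library, ordered by the median log2 fold change, with all tested genes in the last row. The histone, mitosis and S phase lists reach at least 1.37 in M1, M2 and M5, and F1 and M4 stay within the isotype range for these lists.

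The genes with the lowest log2 fold changes beside Il7r and those named above were of varied function. Zfp36l2, which encodes an mRNA decay factor that restrains cell division, was at 1836 TPM in F1, 302 in M1, 355 in M2, 1739 in M3, 1783 in M4 and 310.5 in M5, with isotype values of 1159.9, 1945 and 2726 TPM (lowest, median and highest; log2 fold change -1.22, SE 0.33, limma adjusted p = 0.0481). Peg13, an imprinted noncoding RNA, was at 120.5 TPM in F1, 11.2 in M1, 6.55 in M2, 76.1 in M3, 98.8 in M4 and 10.0 in M5, with isotype values of 67.8 to 145 TPM (log2 fold change -1.54, SE 0.45, limma adjusted p = 0.0484). Zrsr1, an imprinted splicing factor gene, had a log2 fold change of -1.23, limma adjusted p = 0.0481. Rrad, the gene of a Ras-related GTPase, was at 61.7 TPM in F1, 8.66 in M1, 9.9 in M2, 59.4 in M3, 57.9 in M4 and 10.4 in M5, with isotype values of 46.3 to 92.4 TPM (log2 fold change -1.42, SE 0.36, limma adjusted p = 0.0481). In Peg13, Rrad and Zfp36l2 the values of F1, M3 and M4 lay within the isotype range.

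Jmy, an actin nucleator and p53 cofactor gene, was at 52.6 TPM in F1, 8.37 in M1, 7.28 in M2, 64.7 in M3, 55 in M4 and 5.15 in M5, with isotype values of 44.3 to 63.2 TPM (log2 fold change -1.31, SE 0.39, limma adjusted p = 0.0488). Here M3 lay above the range. Lpar6, a lysophosphatidic acid receptor gene (-1.19, limma adjusted p = 0.0481), Pgm2l1, a glucose bisphosphate synthase gene (-1.19, limma adjusted p = 0.0481), Phf1, a Polycomb-associated gene (-1.18, limma adjusted p = 0.0481), and Susd2 (-1.20, limma adjusted p = 0.0488) fell by similar amounts. In Susd2, Pgm2l1 and Phf1 the same 3 libraries, M1, M2 and M5, lay below the isotype range, and in Lpar6 M4 did so too.

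Few genes separated the groups completely. In 8 of the 12182 tested genes (0.0657%) the values of all 6 aCD3 libraries lay on 1 side of all 10 isotype libraries, 4 higher and 4 lower, and 7 of the 8 passed the limma test. Ptpa, the gene of a phosphatase 2A activator, was at 37.2 TPM in F1, 36.8 in M1, 43.2 in M2, 38.2 in M3, 34.3 in M4 and 36.8 in M5, against 25.2, 29 and 32.3 TPM (lowest, median and highest) in isotype libraries (log2 fold change 0.41, SE 0.10, limma adjusted p = 0.0481). Sla, an adaptor gene that dampens T cell receptor signalling, was at 82.9 TPM in F1, 94.4 in M1, 88.7 in M2, 83.9 in M3, 88.9 in M4 and 109 in M5, with isotype values of 65.6 to 82.1 TPM (log2 fold change 0.35, SE 0.07, limma adjusted p = 0.0481). Rangap1, the activator of the nuclear transport GTPase Ran (0.40, limma adjusted p = 0.0481), and Paxip1, a DNA damage response gene (0.26, limma adjusted p = 0.0481), were the other 2 on the higher side. That F1, M3 and M4 share the direction of M1, M2 and M5 in these 4 genes follows from how the genes were picked.

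On the lower side were Sc5d, Krcc1, Trmt10c and the microRNA gene Mir6374. Sc5d, an enzyme of the last steps of cholesterol synthesis, was at 34.1 TPM in F1, 26.2 in M1, 24 in M2, 36.4 in M3, 34.8 in M4 and 28.2 in M5, with isotype values of 36.9 to 56.2 TPM (log2 fold change -0.42, SE 0.10, limma adjusted p = 0.0481). Krcc1 was at 24 TPM in F1, 21.7 in M1, 20.2 in M2, 24.3 in M3, 22.7 in M4 and 17.7 in M5, with isotype values of 25.7 to 34.3 TPM (log2 fold change -0.39, SE 0.09, limma adjusted p = 0.0481). Trmt10c, a mitochondrial tRNA methyltransferase gene (-0.33, limma adjusted p = 0.0481), lost its call after scaling by the median of ratios (-0.16, limma adjusted p = 0.16). Mir6374, named because the count is small although the naming rule leaves microRNA genes out, missed the threshold (-2.09, limma adjusted p = 0.0574). After that scaling 17 genes were without overlap, 6 higher and 11 lower, and 3 of the 8 were among them: Ptpa, Paxip1 and Mir6374.

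The aCD3 effect of GF mice was set against that of SPF mice by the interaction term of the same limma fit, and 424 of 12182 genes passed (3.48%), 297 with a higher (2.44%) and 127 with a lower (1.04%) estimate in GF. This split depended on the scaling: with median of ratios 629 were higher and 793 lower, with voom 831 and 795, and without Rn45s and histone genes 480 and 454. The number that passed also rested on single aCD3 libraries: it was 32 without F1, 137 without M3 and 97 without M4, and 2044 without M1, 2491 without M2 and 3187 without M5. The 2 effects have separate control libraries. Among the highest were Jchain, the joining chain of secreted antibodies (4.42, SE 1.07, limma adjusted p = 0.0288), and the inducible chaperone gene Hspa1a (2.80, SE 0.62, limma adjusted p = 0.0218). Jchain was at 17 TPM in F1, 0.181 in M1, 1.06 in M2, 89.3 in M3, 25.4 in M4 and 0.991 in M5 with aCD3 and 8.29 to 107 TPM with isotype in GF mice, and at 0.128 to 1.55 TPM with aCD3 and 87.4 to 259 TPM with isotype in SPF mice. Adamdec1, a gut macrophage and stromal metalloproteinase gene (2.73, SE 0.42, limma adjusted p = 0.00176), and Mgp, a matrix gene (2.69, SE 0.50, limma adjusted p = 0.00734), ran from 0 to 1.86 TPM and from 0 to 3.18 TPM in GF isotype libraries and from 3.86 to 17.1 TPM and 0.951 to 9.44 TPM in SPF isotype libraries, and were listed at 0 in all SPF aCD3 libraries. With GF isotype values this near 0 there was little room for a fall in GF, so these 2 estimates rest on the SPF isotype level.

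The lowest interaction estimates were those of genes that rose far more in SPF mice. Mt1, a metallothionein gene, was at 2.46 to 17.7 TPM with aCD3 in GF and 59.7 to 101 TPM in SPF mice, with isotype values of 1.46 to 31.2 TPM and 0 to 8.39 TPM (-3.84, SE 0.75, limma adjusted p = 0.0116). Ifitm3, an antiviral membrane protein gene, was at 11.1 TPM in F1, 45.8 in M1, 61.8 in M2, 3.44 in M3, 7.92 in M4 and 87.9 in M5 in GF aCD3 libraries and 151 to 300.1 TPM in SPF aCD3 libraries (-3.31, SE 0.71, limma adjusted p = 0.0202). Cd68 (-2.84, SE 0.69, limma adjusted p = 0.0289), a lysosomal glycoprotein gene of phagocytes, was at 13.1 TPM in F1, 44.2 in M1, 46.7 in M2, 8.33 in M3, 9.34 in M4 and 58 in M5, against 54.4 to 106 TPM in SPF aCD3 libraries. Ifitm1 followed (-2.64, SE 0.50, limma adjusted p = 0.00922).

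Of the genes named for the GF comparison, Havcr2 rose less in GF (-2.43, SE 0.69, limma adjusted p = 0.048), with 27.6 to 36.5 TPM in SPF aCD3 libraries. Gata3, Bcl2, Klrk1, Fos, Jun, Dusp1, Rgs1, Rora, Tgtp1 and Dnajb4 had less negative effects in GF than in SPF mice, with interaction estimates from 0.92 for Gata3 to 1.70 for Dnajb4. Lag3 (-2.83, SE 1.00, limma adjusted p = 0.0752), Il10 (-1.70, SE 0.53, limma adjusted p = 0.0578), Mki67 (-1.30, SE 0.58, limma adjusted p = 0.128) and Il7r (1.69, SE 0.81, limma adjusted p = 0.15) did not pass this test of the difference. In SPF aCD3 libraries Lag3 was at 505 to 825 TPM and Il10 at 556 to 766 TPM, ranges that M5 entered for both genes and M2 for Il10.

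RNA of other cell types was followed through lists of their markers. Pancreatic acinar genes differed most between libraries. Summed over 19 markers they reached 1022 TPM in aCD3 M3, 193 in F1, 60.7 in M2, 58.4 in M4, 10.6 in M1 and 4.70 in M5, against 4.6 to 139 TPM in isotype libraries. All 15 tested members had a log2 fold change above 0, with a median of 1.56, and in all 15 F1 and M3 lay above the isotype range. In the fit of the GF libraries alone 14 of the 15 had an unadjusted limma p under 0.05 and 0 an adjusted one. Past the threshold on TPM was 1 (4 after scaling by the median of ratios), Sycn, a zymogen granule gene, at 16 TPM in F1, 1.11 in M1, 5.03 in M2, 41.6 in M3, 1.15 in M4 and 0 in M5 with isotype values of 0 to 7.43 TPM (log2 fold change 1.95, SE 0.59, limma adjusted p = 0.0488). Ctrb1, of chymotrypsinogen, was at 19.4 TPM in F1, 1.3 in M1, 8.67 in M2, 164 in M3, 7.95 in M4 and 0.593 in M5 and missed the threshold (2.45, limma adjusted p = 0.0537), as did Try4, of trypsinogen (2.04, limma adjusted p = 0.0741). Reg2, another pancreatic gene, was at 1.31 TPM in F1, 2.49 in M1, 5.66 in M2, 22.3 in M3, 0 in M4 and 0.454 in M5 and listed at 0 in all 10 isotype libraries, and it passed the test. Sycn and Reg2 were the 2 of the 12 genes with the highest log2 fold changes in which M3 had the highest value.

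Several other marker lists varied within both groups, and some moved with M1, M2 and M5. Endothelial markers summed to 15.6 TPM in F1, 4.67 in M1, 3.79 in M2, 9.79 in M3, 11.9 in M4 and 3.6 in M5, against 7.23 to 17.9 TPM in isotype libraries, so M1, M2 and M5 lay below every isotype library. The defining endothelial genes Cdh5, Kdr and Vwf were under 1 TPM in every GF library. B and plasma cell markers summed to 15.7 to 106 TPM with aCD3 and 18 to 123 TPM with isotype, with Ms4a1 and Pax5 under 1 TPM in every GF library. NK cell and innate lymphoid markers summed to 30.6 TPM in F1, 18.7 in M1, 18.5 in M2, 30 in M3, 27.2 in M4 and 13.2 in M5. The isotype range was 17.7 to 70.1 TPM with a median of 44.1, so M5 alone lay below it and M1 and M2 lay near its lower end. Myeloid markers ran from 121 to 164 and from 110.4 to 156 TPM, with Itgam, Cd14 and Adgre1 under 1 TPM throughout. The sum in M5 was the highest, whereas the list medians of M1, M2 and M5 (-0.55, -0.64 and -0.63 relative to the isotype mean) were below 0 and within the isotype range of -0.85 to 0.93. The 2 CD8 genes summed to 3.47 TPM in F1, 13 in M1, 9.59 in M2, 5.53 in M3, 7.56 in M4 and 12.8 in M5. With isotype they summed to 1.25 to 61.2 TPM, where 1 library (M4) stood out and the next was at 8.54 TPM. M1, M2 and M5 thus lay above every isotype library but that one. Epithelial markers ran from 9.37 to 62.1 and from 8.95 to 308 TPM, and the list medians of M1, M2 and M5 (-1.02, -1.20 and -0.81 relative to the isotype mean on the log2 scale) lay below the lowest isotype library (-0.71). Of 15 tested epithelial members Cdh1 (-0.71, limma adjusted p = 0.0484) and Lgals4 (-0.85, limma adjusted p = 0.0484) fell. Kit, listed for innate lymphoid and mast cells, rose (0.67, limma adjusted p = 0.0484) and reached 3.41 TPM at most, while 6 of the 8 mast cell markers stayed under 1 TPM. Stromal markers summed to 6.09 to 21.1 TPM with aCD3 and 5.65 to 18 TPM with isotype, and erythroid and gamma-delta T cell markers to at most 2.69 and 6.11 TPM. Whether these differences in other cells take part in the effects above was not tested.

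**Figure D5:**
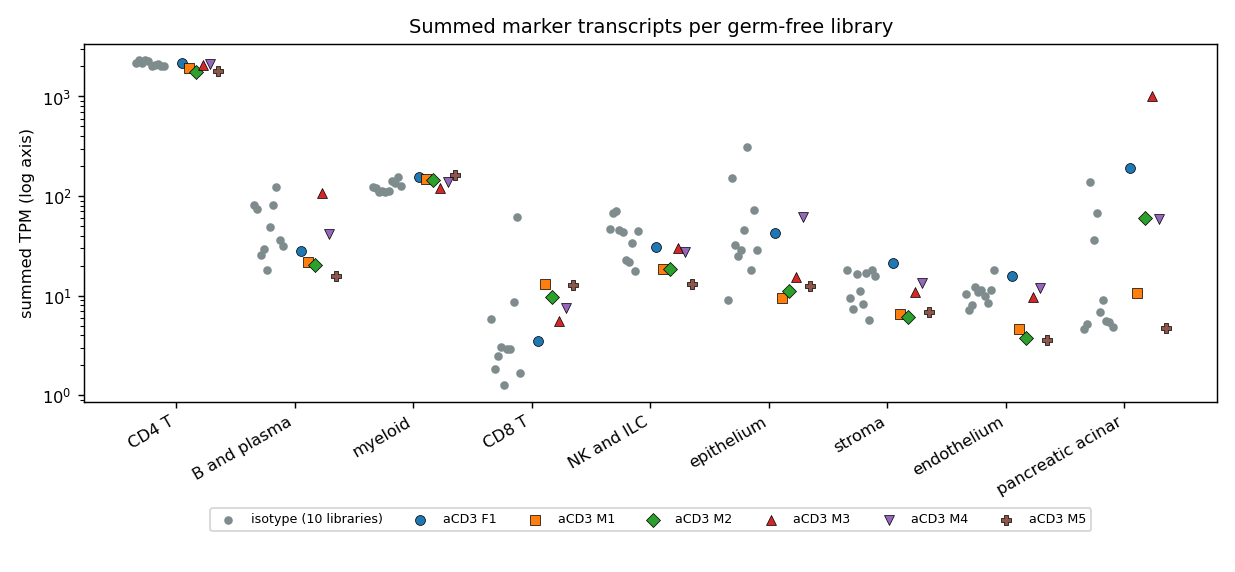
Summed TPM, on a log axis, of the markers of CD4+ T cells and of 8 other cell types in the 10 isotype libraries (grey points) and each aCD3 library (coloured symbols). CD4+ T cell markers lie between 1769 and 2311 TPM in all 16 libraries, and the pancreatic acinar markers of aCD3 M3 and F1 lie above every isotype library.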

How the data were processed

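Per the file headers, the authors computed the deposited TPM with HOMER over RefSeq transcripts of mm10; the aligner's settings are not given in the sources used here. In 99.24% of rows length equals genomic span. Reads were recovered by dividing TPM times length by 1 step per library; over the 3847 to 5752 low-value genes checked per library, 100.0% came out whole within 0.15. Of the TPM columns, 26 matched no sample here and were not used. Coordinates are those of the table.

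Genes that reached 1 TPM in 6 or more of the 28 libraries were tested with limma 3.58.1 (R 4.3.3) on log2(TPM + 1), which understates changes of low genes, with group means, a sex term and a trend; p-values were Benjamini-Hochberg adjusted over all 12182 tested genes. The histone share was tested by exact permutation (SciPy 1.17.1). The fit was also run on simulated data with the same changes in every aCD3 library. That simulation does not cover the split seen among the aCD3 libraries. Within each GF group no 2 libraries held identical values. Named genes were 7 fixed ones, the 12 highest and 12 lowest past the threshold with a mean of at least 5 TPM in a GF group, those without overlap, the largest changes per list, and the 4 highest and 4 lowest interaction estimates; microRNA genes and Gm or Rik symbols were left out. Other genes named under a small count, as examples or for a promoter were chosen after their values were seen. Members, lists and rules were chosen with earlier results of these data known. By counting alone, 3 reads of a 10 kb gene were worth 0.123 to 0.323 TPM in GF libraries. Promoter windows are RefSeq's (GRCm38.p6). Values of some list members are not reported here. Alternatives are listed in the closing section.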

Additional observations from a re-analysis of the deposited data

Results flagged for a closer look

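In the isotype group single libraries stood apart from the other 9 in 8 values, by the gap to the next library relative to the group's range; over all 254 group values examined 9 stood out, and chance gives about 1 in 20. Cd8a was 60.0 TPM in isotype M4 with the next library at 7.0 TPM, and the 2 CD8 genes summed to 61.2 TPM there. Mt1 was 31.2 TPM in isotype F2, and the next value was 6.66 TPM. The lowest library stood apart for Zfp36l2 (1159.9 TPM in M2), Ifi208 (3.98 TPM in M4), Creld2 (9.25 TPM in F5), Slc43a3 (2.73 TPM in M5) and Gpr83 (0.373 TPM in F5).

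Among aCD3 libraries Defa24, a Paneth cell defensin gene, was 6.23 TPM in M4 and at most 0.683 TPM in the other 5. Its isotype values ran up to 248 TPM.

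The limma interaction term between aCD3 and GF or SPF status passed the threshold for 19 of the named genes. Estimates above 0 (GF effect minus SPF effect, log2 scale) were 4.42 for Jchain, 2.80 for Hspa1a, 2.73 for Adamdec1, 2.69 for Mgp (Adamdec1 and Mgp were near 0 TPM in GF isotype libraries, so that little fall was possible there), 1.70 for Dnajb4, 1.55 for Jun, 1.50 for Fos, 1.43 for Dusp1, 1.40 for Bcl2, 1.39 for Rora, 1.37 for Klrk1, 0.98 for Rgs1, 0.94 for Tgtp1 and 0.92 for Gata3. Estimates below 0 were -3.84 for Mt1, -3.31 for Ifitm3, -2.84 for Cd68, -2.64 for Ifitm1 and -2.43 for Havcr2.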

How the results depend on the processing

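The GF count of 862 genes was 0 with pseudocount 0.1, without a low-value filter, with a weight per group, with the series 48 to 54 alone and in all 3 fits of the 16 GF libraries alone (as such, with the number series and with median of ratios; the last 2 were chosen after seeing the data), with 1700 to 4963 genes at an unadjusted limma p under 0.05. It was 3636 with array weights (a fit that stopped before full convergence), 2472 without the sex term, 2215 with the number series as covariate, 1647 with the series 25 to 33 alone, 3307 at an adjusted p under 0.10 and 99 with the added limit of 1 on the size of the log2 fold change. Leaving out 1 library gave 0 to 4213: 3630 without aCD3 F1, 4213 without M3, 3859 without M4, and 0 without M1, M2 or M5 or any 1 isotype library. The fits of a number series alone kept all SPF libraries, as did the effects given within a series. The cause of these shifts in the count was not tested.

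The interaction count of 424 was 1422 with median of ratios, 791 with quantile normalization, 934 without Rn45s and histone genes, 1626 with voom on recovered reads, 774 and 273 with pseudocounts 0.1 and 5, 233 without a filter, 159 with array weights, 668 with a weight per group, 98 and 9 in the series 25 to 33 and 48 to 54, 2442 at 0.10 and 186 with that limit on size; leaving out 1 library gave 32 to 3187. Genes without overlap numbered 17 with median of ratios, 13 without Rn45s and histone genes and 9 to 105 without 1 library. The histone difference was 6.58 to 10.7 percentage points without 1 library (exact permutation p 0.0180 to 0.105).

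A replicate block on the shared names gave 1240 genes (420 higher, 820 lower) and an interaction count of 764; deviations of same-named GF libraries correlated at -0.208 to 0.198, and no label says that names pair animals. Median of ratios, quantile normalization, pseudocount 5, a 5 TPM filter, voom and omission of Rn45s and histone genes gave 933 to 1189 genes.

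Of 90 named genes past the threshold, median of ratios lost 9, and pseudocount 5 lost 4 (Ccr7, Sycn, Reg2 and Lgals4). The log2 fold change of Ifng turned to 0.11 with that scaling and ran from -0.11 to 0.014 without 1 library (0.014 without aCD3 F1); that of Mgp, 0.00, turned to -0.0077 with pseudocount 5, -0.079 with the number series, -0.0090 with the replicate block and -0.18 to 0.15 without 1 library. TPM depth limits low genes such as Havcr2 in isotype libraries.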
